A study of Mus musculus with 23 samples.

Results

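Fhit and Wwox are genes that span common fragile sites, and their transcripts were followed here in mouse liver as 2 of 18193 measured genes, through 5 of 45037 probe sets, 1 for Fhit and 4 for Wwox. The members are all probe sets that the platform annotation pairs with one of these genes alone, and 0 probe sets pair with either of them together with another gene. The genes were chosen by the treated minus vehicle differences of their brightest probe sets, so these differences are given below as a description and not as a test. Tests were made of how the genes vary among livers of the same group, which the choice did not use, of each treatment's livers between the 2 times, and of neighbouring genes. The comparison over time draws on the same arrays as the choice, but on another contrast.

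RNA came from the livers of male mice of the strain hemizygous FVB/N-SULT1A1/2, which carry human sulfotransferase genes, with 1 array for each animal. All 4 groups carry this transgene, and the labels give an age of 5 weeks for all of them without saying at which point of the study. Treated mice received 1-MIM-OH, 1-methoxy-3-indolylmethyl alcohol, which arises from a plant glucosinolate, by mouth in doses of 26 mg per kg, 3 a week, and vehicle mice received the carrier, glyceryl trioctanoate. The course was 10 treatments over 21 d, with 5 treated and 6 vehicle mice, or 40 treatments over 90 d, with 6 of each, and livers were collected the day after the final dose; 1 treated array at 21 d is not among these, having been left out by the submitters for hybridisation artefacts. The title of the series asks how the profile compares with that of genotoxic hepatocarcinogens. All values are log2 signals after robust multi-array averaging, on which a difference of 1 is a doubling.

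Common fragile sites are chromosome regions that break or show gaps when DNA replication is slowed, and they often lie in very long genes that are transcribed and replicated late in the cell cycle. Fhit encodes a hydrolase of the histidine triad family that cleaves diadenosine polyphosphates, and Wwox encodes a short-chain oxidoreductase with WW domains, which bind proline-rich partners. Both genes are often deleted in tumours and are described as tumour suppressors. Cdkn1a encodes p21, the cyclin-dependent kinase inhibitor that the transcription factor p53 induces after DNA damage, and it serves here as the reading of the p53 response in the same liver.

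The start regions of Fhit and Cdkn1a are shown because the signals of both genes moved in opposite directions in the same livers. Each line holds the 250 bases before an annotated start site, from RefSeq on GRCm38.p6. In the Fhit line (chr14:11162036-11162285, minus strand) capitals mark CCAAT on either strand, read as ATTGG where it lies on the other strand. In the Cdkn1a line (chr17:29090729-29090978, plus strand) capitals mark the p53 decamer, the unit that p53 binds as a pair.
Fhit: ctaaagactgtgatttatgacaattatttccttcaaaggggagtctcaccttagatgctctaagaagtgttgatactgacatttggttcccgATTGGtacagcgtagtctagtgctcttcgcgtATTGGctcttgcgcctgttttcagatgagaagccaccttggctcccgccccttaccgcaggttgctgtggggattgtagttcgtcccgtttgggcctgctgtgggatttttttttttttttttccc
Cdkn1a: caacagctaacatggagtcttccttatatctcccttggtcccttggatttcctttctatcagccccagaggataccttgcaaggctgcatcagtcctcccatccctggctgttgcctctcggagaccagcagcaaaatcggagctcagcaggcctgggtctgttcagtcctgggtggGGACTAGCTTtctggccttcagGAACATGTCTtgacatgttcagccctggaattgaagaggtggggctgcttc
The Cdkn1a window held 2 matches to the p53 decamer, from 73 to 64 and from 51 to 42 bases before the start, and the Fhit window held 0. The 2 matches do not adjoin, and whether they or other bases of the window form a pair was not tested. Only exact matches to the decamer were counted. Near matches, such as the bases just after the second match, are left in small letters. Of 32851 start regions of the same length, 7.13% held at least 1 such match, and the share with 2 or more was not counted. The Fhit window held 2 CCAAT matches and the Cdkn1a window 0; 33.8% of all windows held at least 1, and 10.1% held 2 or more. A second start region listed for Fhit and a second for Cdkn1a held 0 p53 decamers and 0 CCAAT matches each; Wwox was not in the table of start regions. A match is a description of letters and not a bound site.

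The livers had the profile of liver tissue. The mean log2 signal of 6 hepatocyte markers, among them Alb and Apoa1, lay between 14.89 and 14.99 on all 23 arrays. This is near the highest signal of the data, 15.41, and a change in the share of hepatocytes was not tested. Of 23 markers of Kupffer, endothelial, stellate, cholangiocyte, lymphocyte and neutrophil cells, 0 passed between treated and vehicle livers at either time by limma, against 1.17% of 18193 genes at 21 d and 0.748% at 90 d. By unadjusted p under 0.05 the marker counts were 1 and 2, where all genes gave 16.6% and 12.1%. The mean of 5 Kupffer cell markers varied widely within groups, from 8.40 to 11.42 in treated and from 8.77 to 10.97 in vehicle livers at 21 d. The mean of the 2 neutrophil markers measured varied more, from 5.54 to 10.77 in treated and from 5.37 to 8.51 in vehicle livers at 21 d. The Gapdh control of the array, read by probes toward either end of the transcript, gave a 3' minus 5' difference that was larger in treated livers at 21 d by 0.67 (2-sided exact permutation p = 0.026), and at 90 d the groups differed by 0.03 (exact permutation p = 0.909). The same difference of the beta-actin control was larger in treated livers at 21 d by 0.58 (2-sided exact permutation p = 0.0303). At 90 d its treated minus vehicle value was -0.05 (exact permutation p = 0.838). In bulk tissue, fewer cells of a type and less RNA per cell cannot be told apart.

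Fhit was measured by probe set 1425893_a_at. In vehicle livers at 21 d its log2 signals were 9.16, 9.18, 9.11, 8.93, 8.78 and 8.70, and in treated livers 7.02, 6.05, 6.02, 6.14 and 7.10. All 5 treated livers lay below all 6 vehicle livers, with a gap of 1.60 between the groups. Vehicle livers averaged 8.98 ± 0.21 (SD, n = 6) and treated livers 6.47 ± 0.54 (SD, n = 5), a difference of -2.51 ± 0.34 (SE) or 5.70-fold lower.

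After 40 treatments the Fhit signals were 9.15, 9.21, 8.83, 9.43, 9.24 and 8.95 in vehicle livers, and 5.70, 6.70, 7.58, 5.79, 6.26 and 8.35 in treated livers. The groups again did not overlap, but the treated livers were spread over a far wider range than the vehicle livers. Treated replicate 6 was 1.72-fold below the vehicle mean, and treated replicate 1 was 10.8-fold below it. Vehicle livers averaged 9.13 ± 0.22 (SD, n = 6) and treated livers 6.73 ± 1.05 (SD, n = 6), a difference of -2.40 ± 0.32 (SE) or 5.30-fold lower.

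**Figure D1:**
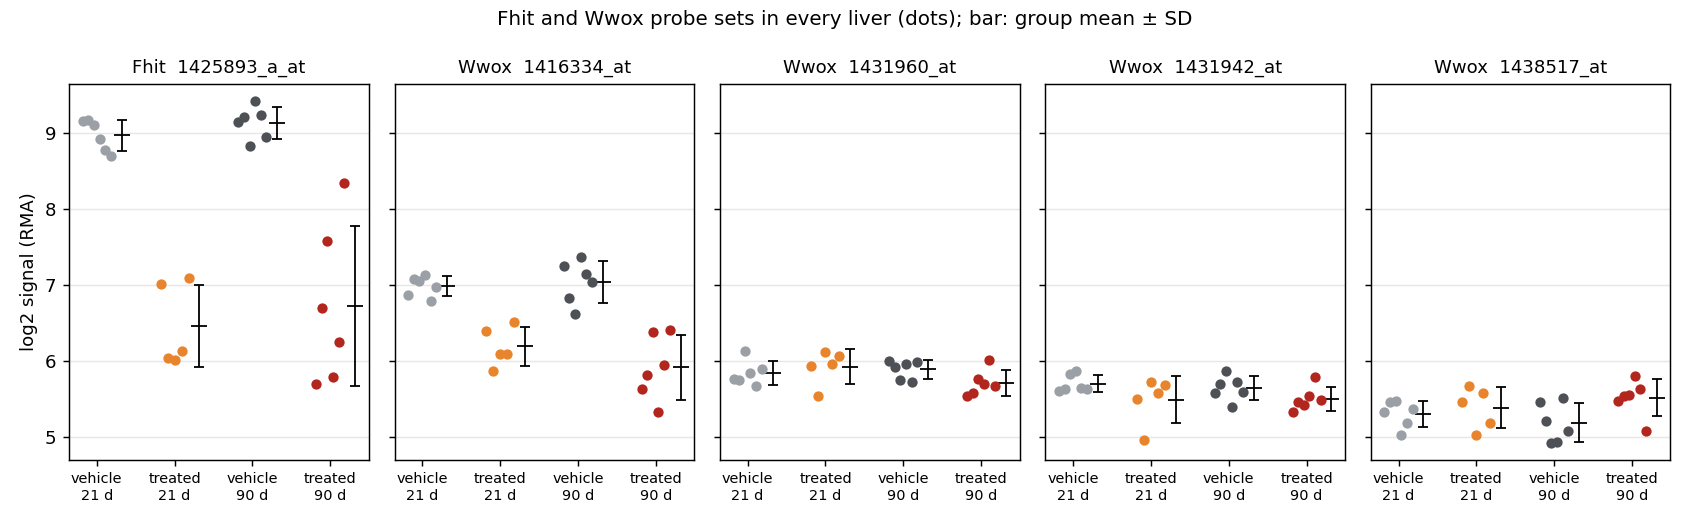
Log2 signal of the Fhit probe set and the 4 Wwox probe sets (panels) in vehicle and treated livers at 21 d and 90 d; each dot is 1 liver, and the bar beside the dots is the group mean ± SD. Fhit and Wwox 1416334_at are lower in every treated liver than in every vehicle liver of the same time, and the other 3 Wwox probe sets overlap between all groups.

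Wwox was read by 4 probe sets that did not behave alike. Probe set 1416334_at had signals of 6.88, 7.09, 7.06, 7.14, 6.80 and 6.98 in vehicle livers at 21 d and of 6.40, 5.87, 6.10, 6.10 and 6.52 in treated livers. The groups did not overlap and were 0.28 apart. The difference of the means was -0.79 ± 0.16 (SE), or 1.73-fold lower, from 6.99 ± 0.13 (SD, n = 6) to 6.20 ± 0.26 (SD, n = 5).

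At 90 d the same probe set gave 7.26, 6.83, 6.62, 7.37, 7.15 and 7.05 in vehicle livers and 5.63, 5.82, 6.38, 5.33, 5.95 and 6.41 in treated livers. All treated livers were lower, and the groups were 0.21 apart. The difference was -1.13 ± 0.16 (SE), or 2.18-fold lower. As for Fhit, treated replicates 3 and 6 were the highest of their group and replicates 1 and 4 the lowest.

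The other 3 Wwox probe sets were dim, with signals between 4.93 and 6.13 on all arrays, next to array medians between 5.53 and 5.61. Their treated and vehicle livers overlapped at both times. Probe set 1431960_at had a difference of 0.08 ± 0.10 (SE) at 21 d and of -0.18 ± 0.10 (SE) at 90 d. Probe set 1431942_at was at -0.21 ± 0.11 (SE) and -0.14 ± 0.11 (SE), and probe set 1438517_at at 0.08 ± 0.13 (SE) and 0.32 ± 0.13 (SE). No probe sequence or transcript position was used here, so it was not tested whether these 3 read the same Wwox transcripts as the brightest one.

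Across the 5 probe sets, 2 were called lower by limma at 21 d and the same 2 at 90 d, namely those 2 whose values led to the choice of the genes; among all probe sets 0.551% were called lower at 21 d and 0.171% at 90 d. Groups without overlap in which every treated liver is below every vehicle liver occurred in 1.12% of all probe sets at 21 d and in 0.36% at 90 d. These shares are printed as background to a choice already made. The Wwox call at 21 d ended when treated 21 d replicate 3 or 4 or vehicle 21 d replicate 2 or 3 was left out, with differences between -0.87 and -0.71 over all 23 fits that each left out 1 array, and it also ended with the replicate block (-0.76) and without the 5 arrays whose Gapdh difference was over 0.9 (-1.12). Without those 5 arrays a lone treated liver remains at 21 d, replicate 2, and its spread is then taken from the other groups. Fhit was called with each single array left out and with the replicate block. These refits reuse the values that led to the choice of the gene, so they are a description and not a test. With the Gapdh difference as a covariate the 21 d differences were larger, -3.15 for Fhit and -1.0 for Wwox 1416334_at. At 21 d the Gapdh difference averaged 1.00 in treated and 0.33 in vehicle livers, so this fit cannot well separate the covariate from the treatment there.

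The order of the Fhit levels was vehicle 90 d (9.13), vehicle 21 d (8.98), treated 90 d (6.73) and treated 21 d (6.47), and that of Wwox 1416334_at was vehicle 90 d (7.05), vehicle 21 d (6.99), treated 21 d (6.20) and treated 90 d (5.92). The vehicle livers of both times overlapped. The 90 d minus 21 d difference was 0.16 for Fhit (95% interval -0.50 to 0.82, limma adjusted p = 0.978) and 0.06 for Wwox (95% interval -0.27 to 0.38, adjusted p = 0.987). Among all probe sets 0.00666% passed in this comparison and 5.96% had an unadjusted p under 0.05, and 0 of the 5 members did either.

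Treated livers at 90 d and 21 d were also not separated by their levels of either gene. The difference was 0.26 for Fhit (95% interval -0.43 to 0.96, limma adjusted p = 0.775) and -0.28 for Wwox 1416334_at (95% interval -0.62 to 0.06, adjusted p = 0.475), and 0 of the 5 members passed against 0.0755% of all probe sets. By unadjusted p, 13.4% of all probe sets and 1 member were under 0.05, namely the dim Wwox probe set 1431960_at (difference -0.21, adjusted p = 0.366). The change of the treatment effect from 21 d to 90 d was 0.11 for Fhit (95% interval -0.86 to 1.07) and -0.33 for Wwox 1416334_at (95% interval -0.80 to 0.14). These are a description without a test, since the effects that enter them led to the choice of the genes. Over all probe sets 0% passed in this comparison by limma, while 9.59% had an unadjusted p under 0.05. Cdkn1a had a change of 1.07 (95% interval 0.05 to 2.09, limma adjusted p = 0.509).

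Cdkn1a was set beside both genes liver by liver. Its brightest probe set, 1424638_at, gave 7.17, 7.14, 7.09, 6.56, 6.41 and 6.59 in vehicle livers at 21 d and 8.98, 10.26, 9.59, 9.35 and 8.95 in treated livers. At 90 d it gave 6.47, 6.72, 7.27, 6.41, 6.63 and 6.69 in vehicle livers and 10.89, 10.69, 9.01, 11.79, 10.67 and 9.15 in treated livers. Cdkn1a was higher in treated livers by 2.60 ± 0.36 (SE, limma adjusted p = 0.00135) at 21 d and by 3.67 ± 0.34 (SE, adjusted p = 2.13e-06) at 90 d. Its other probe set, 1421679_a_at, ranged from 7.82 to 10.75 in treated and from 6.57 to 7.17 in vehicle livers. The livers with the lowest Cdkn1a of each treated group, replicates 1 and 5 at 21 d and replicates 3 and 6 at 90 d, had the highest Fhit and the highest Wwox of that group. In treated 90 d replicate 4 Cdkn1a was 34.1-fold above the vehicle mean, Fhit 10.2-fold below it and Wwox 3.29-fold below it. In treated 90 d replicate 6 Cdkn1a was 5.47-fold above, Fhit 1.72-fold below and Wwox 1.55-fold below.

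**Figure D2:**
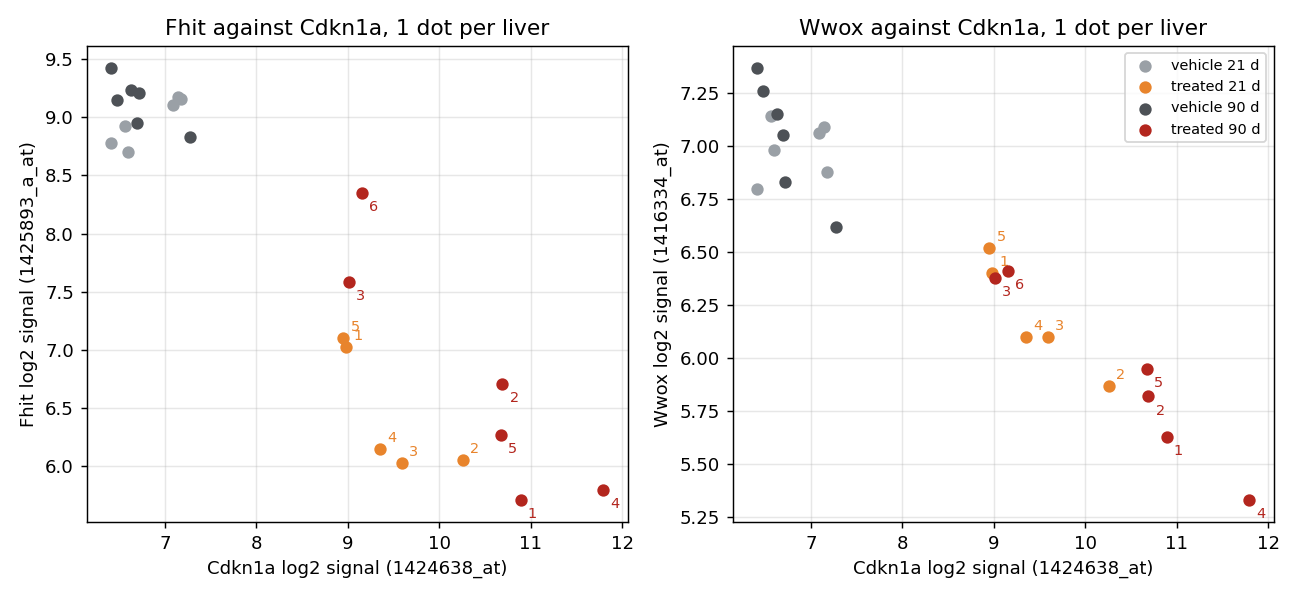
Log2 signal of Fhit (left) and of Wwox 1416334_at (right) against the log2 signal of Cdkn1a, 1 dot per liver, coloured by group; numbers are the replicates of the treated groups. Vehicle livers form a cluster at Cdkn1a signals of 6.41 to 7.27, and among treated livers both genes are lower where Cdkn1a is higher.

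Within the treated groups the relation was tested on values from which each group's mean had been subtracted, so that the difference between treated and vehicle livers did not enter. Over the 11 treated livers, Fhit had a Pearson r of -0.89 with Cdkn1a (2-sided exact permutation within groups, p = 0.00171, adjusted p = 0.00428 over the 5 probe sets) and a Spearman rho of -0.85 (exact permutation p = 0.00425, adjusted p = 0.0106). Fhit was 0.87 lower for each unit of Cdkn1a on the log2 scale. Without the 2 livers whose Cdkn1a lay farthest from the median, treated 90 d replicates 3 and 6, r was -0.72 (exact permutation p = 0.0444, adjusted p = 0.111), so the Fhit relation did not pass after adjustment without these livers.

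Wwox 1416334_at followed Cdkn1a more closely in value, with r of -0.97 (exact permutation p = 9.26e-05, adjusted p = 0.000463) and rho of -0.96 (exact permutation p = 9.26e-05, adjusted p = 0.000463). It was 0.40 lower for each unit of Cdkn1a. Without the same 2 livers r was -0.94 (exact permutation p = 0.000694). The other 3 Wwox probe sets had r between -0.28 and 0.56, and 0 of them passed (exact permutation, adjusted p between 0.119 and 0.538). Of these, 1438517_at, whose r was positive, passed when treated 21 d replicate 3 was left out (r = 0.70, exact permutation, adjusted p = 0.0478). When 1 treated liver at a time was left out, r stayed between -0.91 and -0.87 for Fhit and between -0.98 and -0.95 for Wwox.

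The 6 treated livers at 90 d alone had r of -0.91 for Fhit (exact permutation p = 0.0167, adjusted p = 0.0417) and of -0.98 for Wwox 1416334_at (exact permutation p = 0.00417, adjusted p = 0.0208), with rho of -0.83 (p = 0.0583, adjusted exact permutation p = 0.146) and -0.94 (p = 0.0167, adjusted exact permutation p = 0.0833). Without replicates 3 and 6, which leaves 4 livers, r was -0.60 and -0.94. No separate correlation was computed for the 5 treated livers at 21 d, since correlations were limited to at least 6 livers before any were left out. In the 12 vehicle livers, treated in the same way, r was 0.08 for Fhit (exact permutation p = 0.809) and -0.49 for Wwox 1416334_at (exact permutation p = 0.109), and without vehicle 21 d replicate 1 and vehicle 90 d replicate 3 it was 0.49 and -0.02. Cdkn1a covered a range of only 6.41 to 7.27 there, and the difference between treated and vehicle livers in r was not tested.

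The Gapdh 3' minus 5' difference also varied within treated groups, and its r was 0.56 with Fhit (exact permutation p = 0.0714), 0.48 with Wwox 1416334_at (p = 0.143) and -0.44 with Cdkn1a (exact permutation p = 0.161) over the 11 treated livers. With the Gapdh difference removed from both measures, r with Cdkn1a was -0.87 for Fhit (exact permutation p = 0.00189) and -0.96 for Wwox (exact permutation p = 0.000162). Treated 90 d replicate 6 had a Gapdh difference of 1.24, and replicate 3 of the same group, with the second-highest Fhit, had 0.21.

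Fhit and Wwox also varied together. Over the 11 treated livers r between Fhit and Wwox 1416334_at was 0.91 (exact permutation p = 0.00123) and rho was 0.81 (exact permutation p = 0.0131). The 2 livers whose Wwox, less the group mean, lay farthest from the median were treated 90 d replicates 3 and 6. Without them r was 0.83 (exact permutation p = 0.0222). In the 12 vehicle livers r was 0.58 (exact permutation p = 0.0618) and fell to 0.18 without vehicle 90 d replicates 3 and 4. On the mean of all 4 Wwox probe sets, 3 of them dim, r with Fhit in treated livers was 0.42 (exact permutation p = 0.208), so the relation rests on the brightest Wwox probe set.

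Fhit at 90 d had an SD of 1.05 over the treated livers and of 0.22 over the vehicle livers. A comparison of absolute deviations from the group median, chosen after the values were seen, gave 0.81 in treated and 0.16 in vehicle livers (exact permutation p = 0.0216, adjusted p = 0.13 over 6 such comparisons), which did not pass after adjustment. For Wwox 1416334_at the same deviations at 90 d were 0.33 and 0.21 (exact permutation p = 0.342).

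The rest of the array was searched for genes whose pattern over all 23 arrays was most like that of each gene, among 10843 genes with a mean log2 signal of at least 6. The gene most like Fhit was Wwox (r = 0.93), and the gene most like Wwox was Fhit. These arrays form treated and vehicle clusters and both genes were chosen for the same contrast, so the likeness is a description. After Wwox, Fhit was followed by Gtdc1, a glycosyltransferase-like gene (0.93), Klhl13, a substrate adaptor of a cullin ubiquitin ligase (0.92), Cpq, a carboxypeptidase (0.92), and Myo1d, an unconventional myosin (0.92). Wwox was followed by Pard3b, a cell polarity gene (0.90), Umad1 (0.90), Cpq (0.89) and Pola1, the catalytic subunit of DNA polymerase alpha (0.88).

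The genes most opposite to Fhit were Cdkn1a (-0.94), Phlda3, a p53 target that inhibits Akt signalling (-0.92), and Aen, a nuclease induced by p53 (-0.90). The genes most opposite to Wwox were Cdkn1a (-0.97), Phlda3 (-0.95) and Notch1, a receptor of cell fate signalling (-0.95). Cdkn1a thus stood last of the 10843 genes for both over the 23 arrays, which include the split into treated and vehicle livers. Within the treated livers alone, Cdkn1a stood at place 23 from the most negative r with Fhit among all genes.

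Genes of the p53 pathway were then placed beside Fhit. Of 31 measured p53 targets, 6 rose, 0 fell and 25 did not pass at 21 d, and 11 rose, 0 fell and 20 did not pass at 90 d, where 0.577% and 0.5% of all genes rose. The median difference of the list was 0.25 at 21 d and 0.24 at 90 d, beside -0.02 and 0.02 over all genes. Phlda3 rose by 1.17 ± 0.20 (SE, limma adjusted p = 0.00829) at 21 d and by 1.84 ± 0.19 (SE, adjusted p = 1.18e-05) at 90 d. Dglucy, a D-glutamate cyclase, rose by 0.72 ± 0.12 (SE) at 21 d and Aen by 0.57 ± 0.11 (SE), while at 90 d Eda2r, which encodes the ectodysplasin A2 receptor, rose by 2.47 ± 0.27 (SE) and Ddit4l, which limits mTOR signalling, by 1.15 ± 0.20 (SE).

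Among the 11 treated livers, 14 of the 30 p53 targets other than Cdkn1a had an r with Fhit below -0.6, or 46.7%, beside 6.71% of all genes. The median r was -0.47 for the list and -0.03 over all genes. The lowest value of the list was that of Mdm2, the ubiquitin ligase that limits p53 (r = -0.96), named here after its value was seen. Mdm2 itself did not pass between treated and vehicle livers (0.30 ± 0.20 SE at 21 d and 0.60 ± 0.19 SE at 90 d; limma adjusted p = 0.512 and 0.216). Bbc3, a p53 target that promotes apoptosis, had the highest (r = 0.83). These correlations share the same 11 livers and arrays and are given without a test.

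Other genes described at common fragile sites did not share the size of the Fhit difference. Of 43 such genes, 38 had a probe set of their own. At 21 d 3 fell, 0 rose and 35 did not pass, where 0.594% of all genes fell, and at 90 d 1 fell, 1 rose and 36 did not pass, where 0.247% of all genes fell and 0.5% rose. The median difference was -0.08 at 21 d and 0.01 at 90 d, beside -0.02 and 0.02 over all genes, and 26 of 38 (21 d) and 17 of 38 (90 d) were below 0, beside 56.3% and 42.4% of all genes.

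The fragile site genes that fell at 21 d were Pard3b by 0.78 (SE 0.16, limma adjusted p = 0.0197), Naaladl2, a peptidase-like gene, by 0.63 (SE 0.12, adjusted p = 0.0135), and Dab1, an adaptor of reelin signalling, by 0.37 (SE 0.08, adjusted p = 0.0288). Pard3b fell by 0.81 at 90 d (SE 0.15, adjusted p = 0.00917). Naaladl2 was dim, at 5.33 in vehicle and 4.69 in treated livers at 21 d. Pard3b has 3 probe sets, of which 2 were lower in treated livers. Exoc4, a subunit of the exocyst that tethers secretory vesicles, rose by 0.56 at 90 d (SE 0.12, adjusted p = 0.0286). Within treated livers Pard3b had r of 0.78 with Fhit, the highest of the 38, and the list ranged from -0.59 to 0.78 with a median of -0.09. The count at 90 d depended on the arrays: 2 fell without treated 21 d replicate 2, treated 90 d replicate 5 or vehicle 90 d replicate 4, 4 fell with the Gapdh difference as a covariate, and 5 fell without the 5 arrays over 0.9 in that difference.

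**Figure D3:**
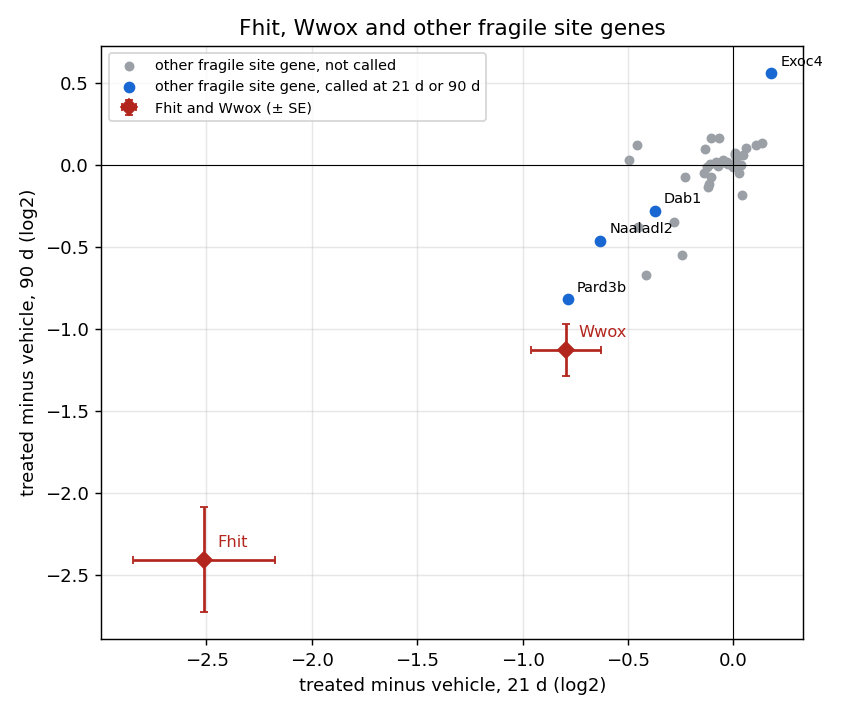
Treated minus vehicle difference (log2) at 21 d (horizontal) and at 90 d (vertical) for Fhit and Wwox 1416334_at (diamonds, ± SE) and for 38 other fragile site genes (dots). Fhit lies at -2.51 and -2.40, Wwox at -0.79 and -1.13, and the other genes lie between -0.78 and 0.18 at 21 d and between -0.81 and 0.56 at 90 d.

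The nearest measured genes on either side of Fhit and Wwox, by their order in RefSeq on GRCm38.p6, were tested in the same fit. Of 12 neighbours, 0 passed at 21 d and 0 at 90 d, against 1.17% and 0.748% of all genes in either direction; by unadjusted p under 0.05 the counts were 1 and 1 of 12, beside 16.6% and 12.1% of all genes. The neighbours of Fhit with the largest values were Ptprg, a receptor tyrosine phosphatase also counted among the fragile site genes above and the next gene on the side of higher coordinates (-0.25 ± 0.21 SE at 21 d and -0.55 ± 0.20 SE at 90 d; limma adjusted p = 0.634 and 0.304), and 3830406C13Rik (-0.21 ± 0.08 SE at 21 d, adjusted p = 0.198). The neighbours of Wwox with the largest values were 4933408N05Rik at 21 d (-0.195 ± 0.107 SE) and Cdyl2 at 90 d (0.21 ± 0.10 SE; limma adjusted p = 0.391 and 0.496). The nearest on the side of higher coordinates, the transcription factor gene Maf, had -0.18 ± 0.14 (SE) at 21 d and -0.06 ± 0.13 (SE) at 90 d (limma adjusted p = 0.587 and 0.925). Several neighbours were dim, among them Fezf2, a transcription factor of the forebrain (mean 3.66), and Dynlrb2, a dynein light chain (mean 3.75).

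**Figure D4:**
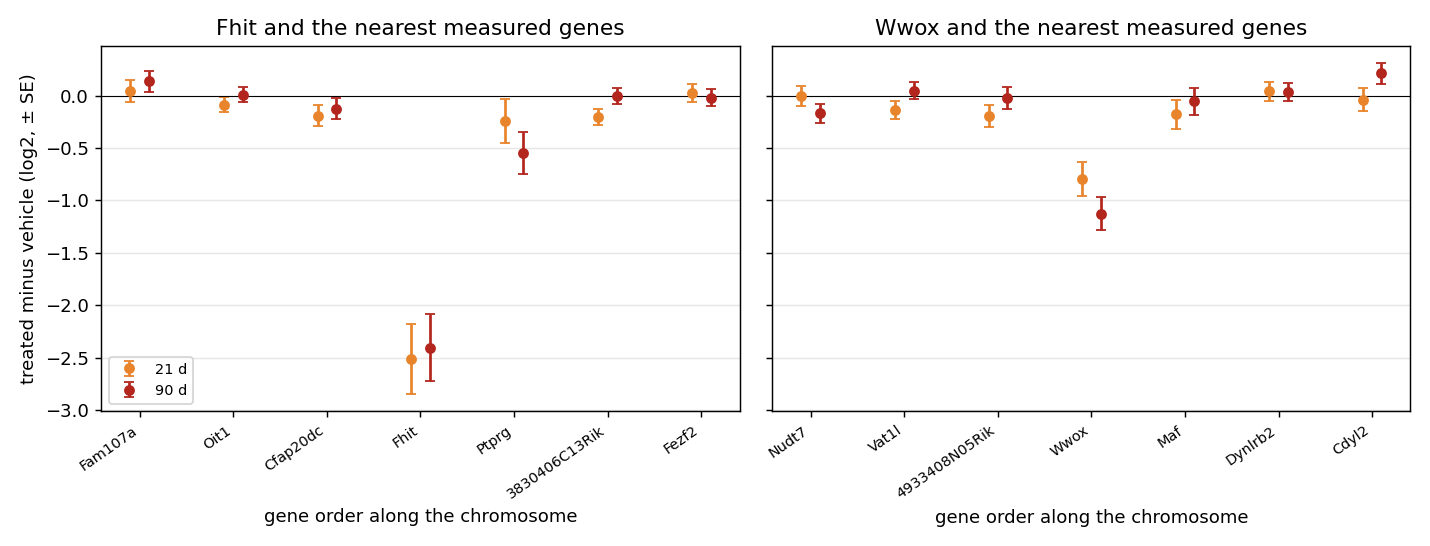
Treated minus vehicle difference (log2, ± SE) at 21 d and 90 d for Fhit (left) and Wwox 1416334_at (right) and the 3 nearest measured genes on each side, in their order along the chromosome and not to scale. The neighbours lie between -0.25 and 0.04 at 21 d and between -0.55 and 0.21 at 90 d.

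Relatives and partners of both proteins, and genes of the replication checkpoint, were counted last. In these 4 lists 0 genes passed at either time by limma, where 1.17% of all genes were called at 21 d and 0.748% at 90 d. By unadjusted p under 0.05, the counts at 21 d and 90 d were 1 and 1 of 8 genes of the histidine triad family and of other hydrolases of dinucleotides, 0 and 0 of 4 measured partners and downstream genes of Fhit, 3 and 1 of 9 measured Wwox partners, and 6 and 3 of 16 genes of the replication checkpoint. Over all genes, 16.6% at 21 d and 12.1% at 90 d had an unadjusted p under 0.05. In the first list the values furthest from 0 at 21 d were those of Hint2, a mitochondrial family member (0.20 ± 0.06 SE, limma adjusted p = 0.113), and Nudt12, a Nudix hydrolase (0.19), and at 90 d those of Hint3 (0.18 ± 0.07 SE, adjusted p = 0.371) and Galt, an enzyme of galactose metabolism (0.12). Among the Fhit partners, the mitochondrial chaperone gene Hspd1 had -0.12 at 21 d and 0.05 at 90 d, its partner Hspe1 had 0.09 and 0.06, and Ctnnb1, which encodes beta-catenin, had -0.10 and -0.06. Within the 11 treated livers 3 of these 4 genes had an r with Fhit below -0.6, beside 6.71% of all genes. They were Hspe1 (-0.81), Hspd1 (-0.78) and the thymidine kinase gene Tk1 (-0.69), given as a description with no test. In the remaining lists 1 of 8 hydrolases, 0 of 9 Wwox partners and 0 of 16 checkpoint genes lay below -0.6.

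Wbp2, a protein bound by WW domains, had the value furthest from 0 among the Wwox partners (0.46 ± 0.12 SE at 21 d, limma adjusted p = 0.0647), followed by the transcription factor gene Jun (-0.41). At 90 d Wbp1, another protein bound by WW domains, had 0.21 and Dvl2, a relay of Wnt signalling, 0.13. In the replication checkpoint Atrip, the partner of the kinase ATR, had 0.33 at 21 d and Timeless, a replication fork protein, 0.35 at 90 d. Rad17, the loader of the checkpoint clamp, had -0.25 ± 0.08 (SE) at 21 d and -0.24 ± 0.08 (SE) at 90 d (limma adjusted p = 0.109 and 0.214).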

How the data were processed

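Liver RNA of 23 mice was hybridised to Affymetrix mouse genome arrays, 1 per animal. The limma p-values set differences against the spread between animals, and the number of arrays limits the precision. The deposited log2 values were made with Partek and RMA, per the submitters' processing notes, versions not stated. That the scale is log2 follows from the range, 2.23 to 15.41. RMA brings arrays to 1 distribution, so a shift of all genes would not show. After 64 control probe sets were left out, 45037 were tested; 34945 paired with 1 gene, 932 with several and 9160 with none in the annotation used, and symbols were updated through RefSeq on GRCm38.p6 (34741 matched). A list gene was represented by its probe set of highest mean (18193 genes).

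Group means were fitted with lmFit and eBayes of limma 3.58.1 (R 4.3.3) over all 23 arrays, and p-values were adjusted by Benjamini-Hochberg over 45037 probe sets, with calls at an adjusted p under 0.05. The fit was tested on simulated data. Correlations used values centred on group means and enumerated all 86400 orders of the 11 treated livers within groups (SciPy 1.17.1). Named were all members, pattern neighbours (5 most like, 3 most opposite), genomic neighbours (3 a side) and, from each list, at most 4 genes that passed, else the 2 of largest difference. The genes, lists and tests were chosen with earlier results of these data known. Alternatives were single arrays left out, the replicate block, the Gapdh covariate, fits on the groups compared, 2 normalizations, a mean of at least 6, eBayes with trend and robust, arrayWeights and means over probe sets; leaving out the arrays with a Gapdh difference over 0.9 was chosen after seeing the data.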

Additional observations from a re-analysis of the deposited data

Results flagged for a closer look

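Of 148 groups of 5 or 6 livers, taken from 37 probe sets of Fhit, Wwox, Cdkn1a and 30 further named genes, 4 held a liver that stood far from the rest of its group, where chance gives about 1 in 20 groups. The dim Wwox probe set 1431942_at was 4.97 in treated 21 d replicate 2 and between 5.51 and 5.73 in the other treated livers of that time. Cdkn1a 1424638_at was 7.27 in vehicle 90 d replicate 3, against 6.41 to 6.72 in the other vehicle livers; the same liver had the lowest Wwox 1416334_at (6.62) and the lowest Fhit (8.83) of its group. Klhl13 was 7.33 in treated 90 d replicate 6, against 6.71 to 6.90. That liver also had the highest Fhit of its group (8.35) and a Gapdh difference of 1.24. Klhl13 was included for its likeness to Fhit over all arrays, this liver among them, so the shared high value is not a separate result. Dvl2, on the list of Wwox partners, was 4.77 in vehicle 21 d replicate 5, against 5.03 to 5.16.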

How the results depend on the processing

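Among the Fhit and Wwox probe sets 2 of 5 were called lower at both times, and 2 at 90 d in every fit run. At 21 d the count was between 1 and 2 with 1 array left out, and 1 with the replicate block. These calls use the values that led to the choice of the genes, so their persistence is a description and not a test. Deviations of same-numbered treated and vehicle livers had correlations between -0.36 and -0.14 in 11 pairs. No pairs of different number were set beside these, so whether the replicate numbers pair the animals was not settled. The replicate block changed no other member call. Called lower among other fragile site genes were 3 at 21 d (between 2 and 4 with 1 array left out, 1 with the replicate block) and 1 at 90 d (between 1 and 2 with 1 array left out, 2 with arrayWeights, 3 on the mean of all probe sets, 4 with the Gapdh covariate, 5 without the arrays over 0.9, which leaves 1 treated liver at 21 d). The 3 comparisons of members over time gave 0 calls in every fit run. Between Fhit and Cdkn1a, r was -0.72 without the 2 farthest livers and -0.60 at 90 d alone without them, where it was -0.94 for Wwox (exact permutation, adjusted p = 0.694 and 0.208); at 90 d, r between Fhit and Wwox was 0.92 without treated replicates 4 and 6 (exact permutation p = 0.125); r between Fhit and Wwox was 0.42 on the mean of all Wwox probe sets. With 1 liver left out, r lay between -0.91 and -0.87, between -0.98 and -0.95 and between 0.90 and 0.94 for these 3 pairs. No called difference changed sign. The cause of these shifts was not tested. Without raw scans, signal over background of the dim Wwox probe sets is unknown.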
